A study of Mus musculus with 4 samples.

Results

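The 9 genes described here are Fshr, Inha, Inhba, Inhbb, Amh, Amhr2, Shbg, Rhox5 and Dhh, which carry the hormone response of Sertoli cells, the somatic cells that line the seminiferous tubule and nurse the germ cells. They were chosen by symbol, and all 9 are among the 24420 symbols of the deposited table of testis expression. RNA of freshly isolated testis of FVB mice was sequenced in 4 libraries, 2 from mice labelled lrrc8a MUT and 2 labelled WT. No further treatment is named for either genotype. The age of the mice and the kind of Lrrc8a mutation are not given in the sources used here, nor whether each library is a separate animal, so the p-values reflect only how far these libraries scatter, and that scatter may be technical. The product of Lrrc8a is part of the anion channel that cells open when they swell, and the series links poor activity of that channel to male infertility.

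Follicle-stimulating hormone (FSH) from the pituitary binds its receptor on Sertoli cells and raises cyclic AMP there, and testosterone acts on the same cells. Sertoli cells answer with inhibin, a dimer of the inhibin alpha subunit and a beta subunit that lowers FSH secretion, while 2 beta subunits form activin, which raises it. Anti-Mullerian hormone (AMH) is a product of immature Sertoli cells that removes the female duct primordium in the fetus and is low in the adult testis. Desert hedgehog is the Sertoli signal that acts on Leydig and peritubular cells.

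Between 40426400 (MUT 2) and 68192776 (WT 1) reads per library were recovered from the deposited CPM, which are scaled read counts. The CPM summed to 992487 and 987723 in MUT 1 and MUT 2. In WT 1 and WT 2 they summed to 1.01146e+06 and 1.00853e+06, so the scaling was not by the total of these reads alone. Lrrc8a was measured at 13.5 and 15.9 CPM in MUT against 18.2 and 17.1 CPM in WT, and was not called (limma adjusted p = 0.218). Germ cells are the labelled cell type and testis the labelled source. Germ cell markers summed to between 15170 and 16977 CPM per library, but 22 Sertoli cell markers also summed to between 1563 and 1715 CPM and none of them was at 0, and all 8 Leydig cell, 6 peritubular myoid and 6 macrophage markers passed the filter on low values. The libraries were therefore read as whole testis. In such tissue, fewer cells of a type and less RNA per cell cannot be told apart.

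The level of each gene was first compared per length, as CPM per kilobase of annotated exon. Amhr2, the type II receptor for AMH, was the highest at 87.7 and 87.1 CPM per kb in MUT 1 and MUT 2 and at 93.2 and 91.2 CPM per kb in WT 1 and WT 2. Inha followed at 58.5 to 73.4 CPM per kb over the 4 libraries, and the homeobox gene Rhox5 at 11.1 to 17.0. Inhbb (5.55 to 6.11), Shbg (4.25 to 5.89) and Dhh (2.79 to 3.06) formed the middle of the order. Amh (0.922 to 1.79) and Fshr (1.07 to 1.22) were low, and Inhba was at 0.00464 to 0.0598 CPM per kb. Of the 8 pairs of neighbours in this order, Inhbb with Shbg and Amh with Fshr overlapped between libraries, and the other 6 pairs did not. The mean level per kb of Amhr2 was 79.4 times that of Fshr, and Amhr2 exceeded the Sertoli transcription factor genes Sox9 and Wt1, at 3.4 and 5.79 CPM per kb, but not Clu at 209.6.

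**Figure D1:**
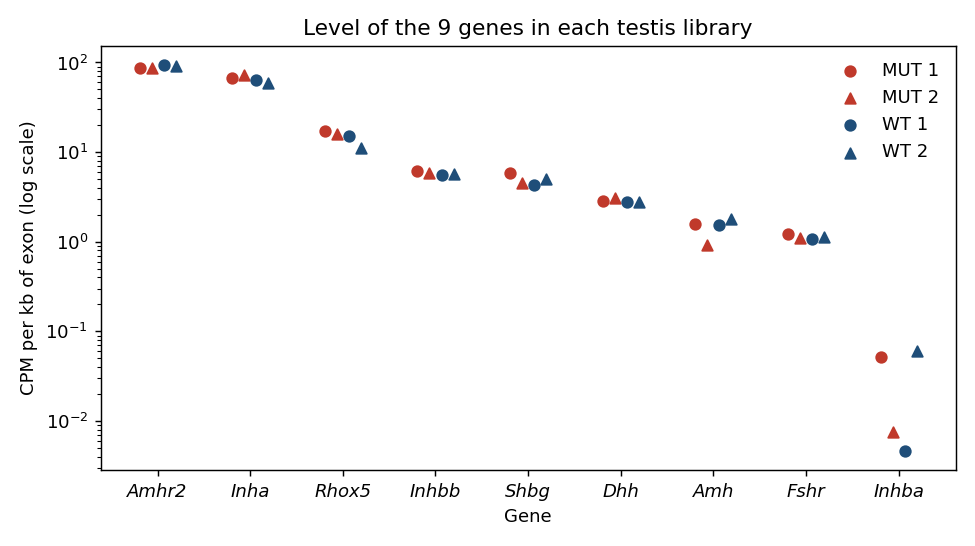
Level of the 9 genes in each library, as CPM per kb of exon on a log axis, with 1 point per library (red MUT, blue WT; circle replicate 1, triangle replicate 2). Amhr2 and Inha lie above 58 CPM per kb in all 4 libraries, and Inhba splits into 2 high and 2 low libraries, 1 of each genotype.

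The promoters of the most abundant gene and of the hormone receptor at the low end of the order are shown as the sequences at which transcription of each begins. They come from the RefSeq promoter table for GRCm38.p6, which holds 8 of the 9 genes (not Amh), and run from 250 bases before to 50 bases after the annotated start. Capitals mark a match to AAGGTCA, the letters recognised by the steroidogenic nuclear receptor NR5A1, in Amhr2 (chr15:102445117-102445416, plus strand), and to the E-box CACGTG in Fshr (chr17:89200626-89200925, minus strand).
Amhr2: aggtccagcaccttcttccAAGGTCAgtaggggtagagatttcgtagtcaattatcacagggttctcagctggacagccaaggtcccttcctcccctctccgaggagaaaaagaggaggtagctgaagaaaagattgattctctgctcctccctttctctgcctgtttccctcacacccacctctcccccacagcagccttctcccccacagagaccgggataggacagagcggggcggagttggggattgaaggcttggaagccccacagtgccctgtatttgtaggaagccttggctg
Fshr: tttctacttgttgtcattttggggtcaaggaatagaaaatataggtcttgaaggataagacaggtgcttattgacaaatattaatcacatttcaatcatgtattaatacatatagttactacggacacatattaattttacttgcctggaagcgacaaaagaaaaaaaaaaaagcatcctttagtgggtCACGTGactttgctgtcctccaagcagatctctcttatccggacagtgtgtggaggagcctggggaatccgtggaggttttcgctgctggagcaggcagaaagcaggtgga
The match in Amhr2 starts 231 bases and that in Fshr 61 bases before the gene start. Searched on both strands, AAGGTCA occurs in 4.72% and CACGTG in 7.15% of 32817 promoter windows of this length. Among the windows of the 8 genes, AAGGTCA occurred only in that of Amhr2 and CACGTG only in that of Fshr. The windows shown are therefore the ones that hold a match. The full cyclic AMP response element TGACGTCA occurs in 1.79% of these windows and in none of the windows of the 8 genes. The windows of Inha and Rhox5 are set on starts 532 and 50234 bases away from the GENCODE starts of these genes. For these 2 genes, the bases around the GENCODE start were therefore not searched. These matches describe the letters only and were not tied to any measurement here.

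Between genotypes, none of the 9 genes was called. The test was limma on log2(CPM + 0.5) over 15364 genes with at least 1 CPM in at least 2 libraries, and a gene was called at a Benjamini-Hochberg adjusted p under 0.05. Of the 9 genes, 8 passed this filter and 0 of 8 were called, where 0.749% of all tested genes were called (0.482% higher and 0.267% lower in MUT). At an unadjusted p under 0.05 there were 2, Inha and Rhox5, against 14.7% of all tested genes. Both edgeR and DESeq2 on the recovered reads also called 0 of the 8, while they called 116 and 157 of all tested genes. At an unadjusted p under 0.05 there were 2 of the 8 in edgeR (Inha and Rhox5) and 1 in DESeq2 (Inha). DESeq2 gave no adjusted p for 2 of the 8. The log2 fold change, MUT minus WT, was above 0 for 6 and below 0 for 2 of the 8, with a median of 0.08 beside -0.0016 for all tested genes. The MUT libraries lay above both WT libraries for 4 genes (Inha, Inhbb, Rhox5 and Dhh) and below both for 1 (Amhr2), while 45.6% of all tested genes had groups that did not overlap (23.0% above and 22.6% below).

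**Figure D2:**
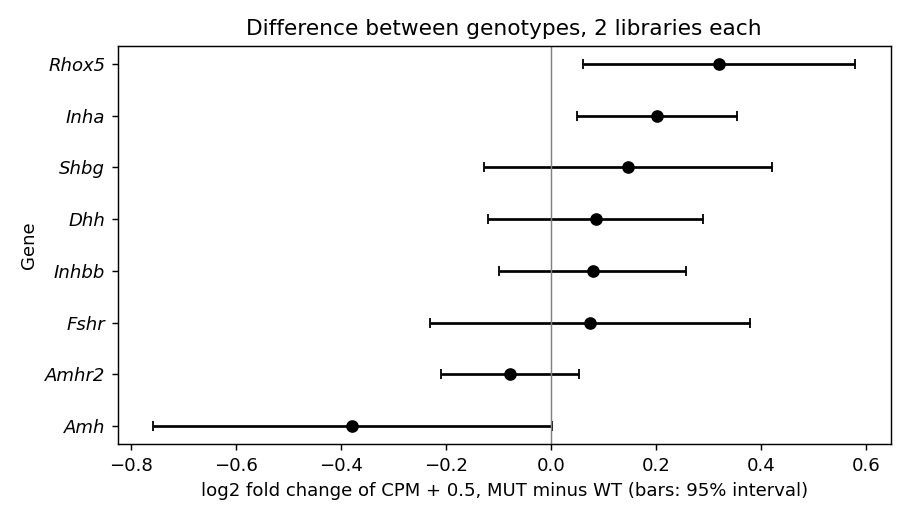
Difference between genotypes for the 8 tested genes, as the log2 fold change of CPM + 0.5 (MUT minus WT) with its 95% interval from limma, 2 libraries per genotype. The interval lies above 0 for Rhox5 and Inha before adjustment over all genes, and that of Amh reaches just past 0.

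Fshr, the receptor through which FSH acts, was measured at 2.89 and 2.61 CPM in MUT 1 and MUT 2 and at 2.52 and 2.65 CPM in WT 1 and WT 2. The genotypes overlapped and all 4 libraries lay close together. The log2 fold change was 0.07 (SE 0.145, limma adjusted p = 0.865), and its 95% interval runs from 0.853-fold to 1.30-fold. It was 0.013 without MUT 1 and 0.14 without MUT 2. These values rest on 107 to 170 reads per library. Fshr is a protein-coding gene of 10 exons on the minus strand of chromosome 17, from 88984952 to 89200675 (GRCm38).

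Inha encodes the alpha subunit that makes a dimer an inhibin. It was at 99.2 and 108.2 CPM in MUT 1 and MUT 2 and at 94.1 and 86.3 CPM in WT 1 and WT 2. Both MUT libraries were above both WT libraries, but the highest WT library and the lowest MUT library were close. The mean was 103.7 ± 6.37 CPM in MUT and 90.2 ± 5.52 CPM in WT (SD, n = 2), a 1.15-fold difference (log2 fold change 0.20, SE 0.0727, 95% interval 0.05 to 0.35) that did not pass the test (limma adjusted p = 0.201). Inha lies on chromosome 1 from 75507077 to 75510366. Leydig cells also make inhibin alpha, and the 8 Leydig cell markers summed to 1164 and 1210 CPM in MUT against 1019 and 997 CPM in WT. Most of each sum came from Cyp17a1, at 657.1 and 680.2 CPM in MUT and 572.5 and 533.0 CPM in WT. Of these 8, 6 had a log2 fold change above 0 and none was at 0 CPM. Cyp17a1 was called higher, as were 0.482% of all tested genes. Insl3 (-0.28) and Hsd3b6 (-0.007) were below 0. The part of Leydig cells in the Inha difference was not tested.

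Inhbb, the beta B subunit, was at 26.0 and 24.7 CPM in MUT 1 and MUT 2 and at 23.6 and 24.3 CPM in WT 1 and WT 2. The libraries differed little in either genotype (limma adjusted p = 0.71, log2 fold change 0.08, SE 0.0847). The 95% interval of the difference runs from 0.934-fold to 1.19-fold, and the log2 fold change from 0.042 to 0.12 with a library left out. Inhba, the beta A subunit, stayed under the filter on low values and was not tested. It had 16 reads in MUT 1, 2 in MUT 2, 2 in WT 1 and 19 in WT 2, or 0.328, 0.0489, 0.0297 and 0.382 CPM. The high and the low libraries were 1 of each genotype. Their exact 95% Poisson intervals did not meet, at 9.15 to 26.0 reads for MUT 1 and 0.242 to 7.22 reads for MUT 2, and at 0.242 to 7.22 reads for WT 1 and 11.4 to 29.7 reads for WT 2; these cover counting error only. Both MUT 2 and WT 1 lie under the floor of 3 reads. Ratios within a library do not depend on how the libraries were scaled. Inha stood to the summed beta subunits at 3.77 and 4.37 in MUT, against 3.98 and 3.49 in WT, with overlapping genotypes. Inhba was at most 0.0157 of Inhbb in any library, so that beta B made up nearly all beta subunit reads in both genotypes.

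Amh was at 2.62 CPM in MUT 1 but 1.54 CPM in MUT 2, against 2.58 and 2.996 CPM in WT 1 and WT 2. MUT 2 was the low library, while MUT 1 lay between the WT libraries. The reads were 128 and 63 in MUT and 174 and 149 in WT. The difference of -0.38 on the log2 scale (SE 0.181, 95% interval -0.76 to 0.0014, limma adjusted p = 0.341) was the largest in size among the 8 tested genes and also the least precise. Without MUT 2 it was -0.07 (adjusted p = 0.938), and without MUT 1 it was -0.69 (adjusted p = 0.0672). The MUT libraries stood 1.53-fold apart on CPM + 0.5, a ratio that 1.61% of 1862 tested genes within 1.5-fold of this level reached. Amh is a short gene on chromosome 10, from 80805243 to 80807648.

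Its receptor gene Amhr2 was at 175.8 and 174.5 CPM in MUT 1 and MUT 2 and at 186.9 and 182.9 CPM in WT 1 and WT 2. Both MUT libraries were below both WT libraries, by a small margin. The log2 fold change was -0.08 (SE 0.0626, limma adjusted p = 0.601), and the 95% interval runs from 0.865-fold to 1.04-fold, the narrowest of the 8. Amhr2 is read from the plus strand of chromosome 15, from 102445367 to 102454633, in 11 exons. Of 9662 other genes with a mean of at least 10 CPM, those whose deviations over the 4 libraries were nearest to Amhr2 were Dus1l, Fars2 and Ppp1r7, at Euclidean distances of 0.0031, 0.0044 and 0.0056 on the log2 scale. With 4 libraries and a flat profile such nearness is a description of level differences only. Amhr2 exceeded Amh 67.0-fold and 113.4-fold in MUT 1 and MUT 2 and 72.4-fold and 61.1-fold in WT 1 and WT 2 in CPM, the highest ratio being that of MUT 2.

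Rhox5, an X-linked homeobox gene that testosterone induces in Sertoli cells, was at 12.8 and 11.9 CPM in MUT 1 and MUT 2 and at 11.4 and 8.36 CPM in WT 1 and WT 2. WT 2 was the low library, and WT 1 lay just under MUT 2. The mean was 12.4 ± 0.679 CPM in MUT and 9.90 ± 2.17 CPM in WT (SD, n = 2), with a log2 fold change of 0.32 (SE 0.124, 95% interval 0.06 to 0.58) that missed the threshold (limma adjusted p = 0.229). Without WT 1 the log2 fold change was 0.54 and Rhox5 was called, in a fit that called more genes in all than the fit of all libraries. WT 2, the low library, was then the only WT library. Without WT 2 the log2 fold change was 0.11. The WT libraries differed 1.35-fold on CPM + 0.5, which 1.17% of 2571 tested genes of like level reached. Rhox5 is on the X chromosome from 37804842 to 37808876.

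Shbg encodes the sex hormone binding globulin, known in the testis as androgen-binding protein. It was at 8.88 and 6.79 CPM in MUT 1 and MUT 2 and at 6.41 and 7.58 CPM in WT 1 and WT 2. The genotypes overlapped, and MUT 1 was the high library. The log2 fold change of 0.15 (SE 0.131, limma adjusted p = 0.646) became -0.03 without MUT 1 and 0.33 without MUT 2. Shbg lies on the minus strand of chromosome 11 from 69614804 to 69617905.

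Dhh, the hedgehog ligand of Sertoli cells, was at 12.7 and 13.5 CPM in MUT 1 and MUT 2 and at 12.3 CPM in both WT libraries. Both MUT libraries were above the WT libraries, by a small margin. The log2 fold change was 0.09 (SE 0.0978, 95% interval -0.12 to 0.29, limma adjusted p = 0.734), and 0.044 to 0.13 with a library left out. Dhh is on the minus strand of chromosome 15 from 98891152 to 98898540. Of its 4399 exonic bases, 546 are shared with Rhebl1 on the same strand and 1107 with the antisense gene Gm49442. No source used here gives the strand setting of the counting, so reads of these genes may not be separated. No other gene of the 9 shares exonic bases with a neighbour in GENCODE vM21.

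**Figure D3:**
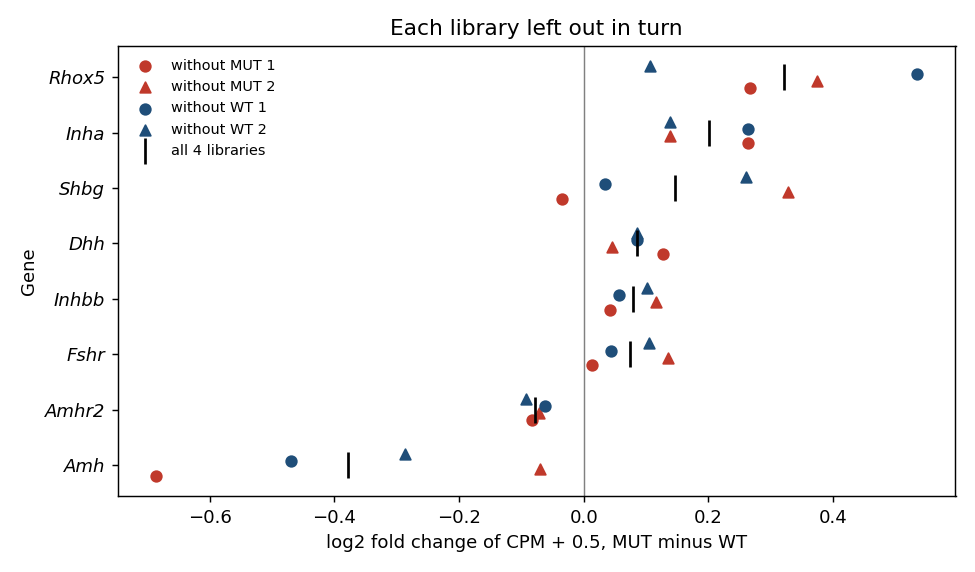
Log2 fold change of CPM + 0.5 (MUT minus WT) of the 8 tested genes with all 4 libraries (black bars) and with each library left out (points; red a MUT library, blue a WT library). Amh moves between -0.69 and -0.07 and Rhox5 between 0.11 and 0.54, while Amhr2 stays between -0.09 and -0.06.

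Set against the summed CPM of the 22 Sertoli cell markers in the same library, a scale free of library scaling, the genotypes overlapped for 6 of the 9 genes and did not for 3. Clu gave more of the marker sum than any other gene, at 727.0 and 766.0 CPM in MUT and 718.4 and 669.9 CPM in WT. The marker sum was itself higher in MUT (1712 and 1715 CPM) than in WT (1631 and 1563 CPM). Dividing by it lowers every gene in MUT alike, by 0.10 on the log2 scale between the genotype means. On this scale the libraries of the genotypes did not overlap for 54.2% of all tested genes, with 8.41% above and 45.8% below WT. Per 1000 CPM of markers, Fshr was at 1.69 and 1.52 in MUT and 1.55 and 1.70 in WT, and Inhbb at 15.2 and 14.4 in MUT and 14.5 and 15.6 in WT. Dhh was at 7.41 and 7.85 in MUT and 7.54 and 7.86 in WT. For these 3 genes and for Rhox5, Shbg and Inhba both genotypes covered a common range. Inha was above WT in both MUT libraries, at 58.0 and 63.1 against 57.7 and 55.2, but MUT 1 and WT 1 nearly met. Amhr2 was at 102.7 and 101.8 in MUT against 114.6 and 117.0 in WT, and Amh at 1.53 and 0.897 against 1.58 and 1.92, both in the direction of the common shift. In CPM the genotypes overlapped for Amh and did not for Inhbb, Dhh and Rhox5, so the shift changed the overlap of these 4 genes. With 2 libraries per genotype, the smallest two-sided p of an exact permutation test of such a ratio is 0.333, and none was run.

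**Figure D4:**
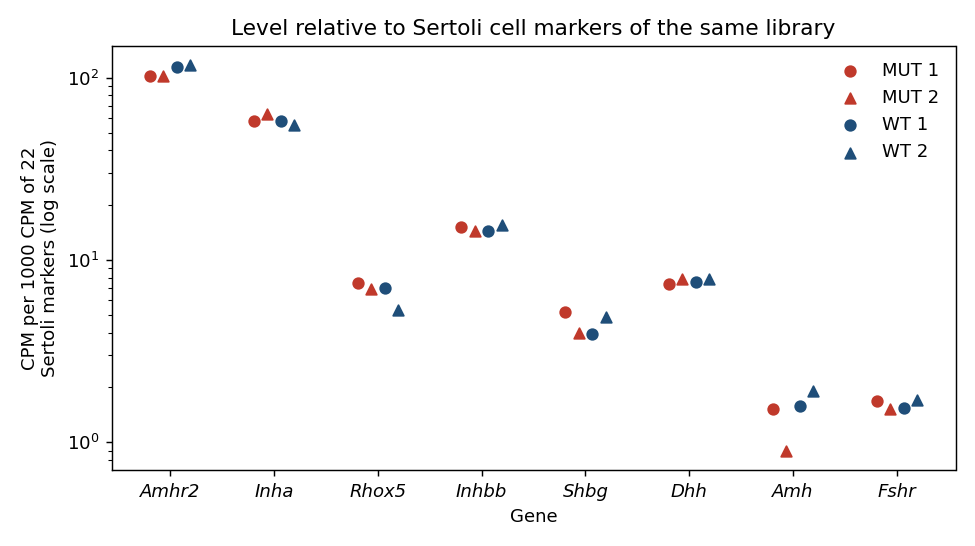
CPM of each gene per 1000 CPM of 22 Sertoli cell markers of the same library, on a log axis, 1 point per library (red MUT, blue WT; circle replicate 1, triangle replicate 2); Inhba is left out for its low reads. Fshr, Inhbb and Dhh overlap between genotypes, while both MUT points of Amhr2 (102.7 and 101.8) lie below both WT points (114.6 and 117.0).

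Genes linked to the signaling of these products were examined as lists. The libraries were read as whole testis, so the values of the lists are not those of Sertoli cells alone. As a background for every list, limma called 0.749% of all 15364 tested genes, whose median log2 fold change was -0.0016. Of 25 genes of activin, inhibin and AMH signaling, 20 were tested, 1 was called higher, 0 lower and 19 not called. Bmpr2, a type II receptor of the bone morphogenetic protein family, rose from 10.5 and 11.5 CPM in WT 1 and WT 2 to 16.7 and 14.2 CPM in MUT 1 and MUT 2 (log2 fold change 0.47, SE 0.105, limma adjusted p = 0.041). That call was lost without MUT 1 (adjusted p = 0.266) or WT 1 (0.0961). The activin type I receptor gene Acvr1b was at 20.6 and 18.9 CPM in MUT and 15.2 and 17.5 CPM in WT (adjusted p = 0.204), and Pcsk5, a proprotein convertase gene, at 6.50 and 5.69 against 4.92 and 4.24 CPM (0.174). Smad4, the shared signal transducer of the family and the most abundant of the list in CPM, averaged 34.5 CPM in MUT and 35.7 CPM in WT. Over the tested genes of the list the median was 0.09. Inhbe, another beta subunit gene, had 0 reads in all 4 libraries, and the activin-binding Fst was under the filter.

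Of the 25 genes of FSH receptor and cyclic AMP signaling, all were tested and 0 were called by limma, with 13 above and 12 below 0. The median of 0.02 became -0.051 without WT 2 and 0.0070 without MUT 2. Prkar2a, a regulatory subunit of protein kinase A, was at 208.9 and 190.4 CPM in MUT and 213.2 and 256.9 CPM in WT (limma adjusted p = 0.176). Without WT 1, Prkar2a was called lower (log2 fold change -0.36). That fit called more genes in all than the fit of all libraries and held WT 2 alone for WT. The receptor kinase gene Grk5 was at 10.1 and 9.24 CPM in MUT and 8.28 and 8.53 CPM in WT (adjusted p = 0.429). Ldha, the most abundant of the list in CPM, averaged 919.5 CPM in MUT and 936.4 CPM in WT.

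Among 23 androgen response and Rhox genes, a list that also holds genes of receptor coactivators, 13 were tested. Of these, 1 was called, where 0.749% of all tested genes were called. Ncoa2, a coactivator of steroid receptors, rose from 151.1 and 151.4 CPM in WT to 187.4 and 186.6 CPM in MUT (limma adjusted p = 0.0274; log2 fold change 0.31, SE 0.0628). The call was lost without MUT 1 (0.161) or MUT 2 (0.0975). Eppin, a protease inhibitor gene of Sertoli cells, was at 23.7 and 24.3 against 20.9 and 18.8 CPM (adjusted p = 0.165). Of the Rhox genes listed beside Rhox5, Rhox8, Rhox11 and Rhox13 passed the filter and none was called. Rhox8 averaged 11.8 CPM in MUT and 10.6 CPM in WT. Over the 13 tested genes the median was 0.10, and 0.047 without WT 2.

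Among 16 genes of Desert hedgehog signaling, 13 were tested and 0 were called by limma, with 7 above and 6 below 0. The median of 0.04 became -0.027 without WT 2. The receptor gene Ptch1 was at 10.1 and 9.31 CPM in MUT and 7.80 and 7.04 CPM in WT (log2 fold change 0.37, limma adjusted p = 0.128). Gli1, a transcription factor gene of the pathway, lay the other way, at 1.97 and 2.17 CPM in MUT and 3.10 and 2.94 CPM in WT (-0.45, adjusted p = 0.158). The inhibitor gene Sufu averaged 195.0 CPM in MUT and 217.4 CPM in WT.

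Of the 22 Sertoli cell markers, 21 were tested, 15 were above and 6 below 0, and 1 was called, Gja1 (connexin 43), at 51.6 and 48.3 CPM in MUT and 37.3 and 39.5 CPM in WT. This call was lost without MUT 1 (limma adjusted p = 0.193). The median of the list was 0.11, beside 0.08 for the 8 tested hormone response genes. Ctsl averaged 194.8 CPM in MUT and 168.0 CPM in WT, Gstm6 at 40.1 and 33.9 CPM, and Clu, the highest in CPM, at 746.5 and 694.1 CPM, none of them called with all 4 libraries. Without WT 1, Ctsl was called higher (log2 fold change 0.28). That fit called more genes in all than the fit of all libraries and held WT 2 alone for WT. The Leydig cell markers had a median of 0.28 (0.16 without MUT 2) and 1 called member, the steroidogenic enzyme gene Cyp17a1, whose call was lost without MUT 1 (adjusted p = 0.0907), MUT 2 (0.162) or WT 2 (0.124). The germ cell and peritubular myoid markers had medians of -0.07 and -0.17 and the macrophage markers 0.08 (-0.017 without MUT 2), with 0 called by limma in each.

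**Figure D5:**
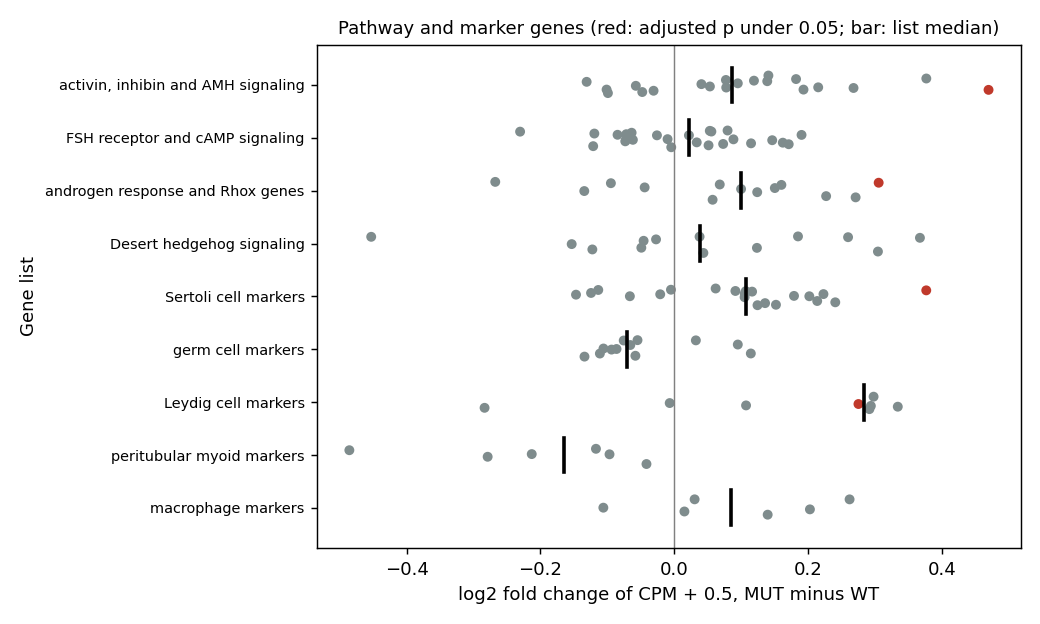
Log2 fold change of CPM + 0.5 (MUT minus WT) of every tested gene of the 4 pathway lists and 5 cell type lists, 1 point per gene, red where the adjusted p was under 0.05, with the list median as a black bar. Bmpr2, Ncoa2, Gja1 and Cyp17a1 are the red points, and the list medians run from -0.17 (peritubular myoid) to 0.28 (Leydig).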

How the data were processed

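Per the labels' protocols, Trizol-extracted, DNase-treated RNA went into a stranded Illumina TruSeq mRNA kit. The authors deposited CPM for each symbol and library. The submitters' processing notes name build mm10 and the tools edgeR 3.8.6, HTSeq 0.6.0 and TopHat2 2.0.10, with no role or order. Dividing each deposited CPM by the lowest nonzero value of its library gave numbers within 0.001 of whole reads for 100% of values, and these reads served the alternative count tests. The floor of 3 reads is 0.0445 to 0.0733 CPM and covers counting error only.

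Log2(CPM + 0.5) of genes with at least 1 CPM in at least 2 libraries was tested with limma 3.58.1 (trended eBayes, two-sided) in R 4.3.3, and p was adjusted over all tested genes by Benjamini-Hochberg. Fold changes on this scale understate those of weak genes. Exon lengths and positions are from GENCODE vM21 (GRCm38). The symbol Grk2 was matched through its RefSeq synonym Adrbk1. edgeR 4.0.16 and DESeq2 1.42.0 were alternatives. The pipeline was tested on simulated reads, as a check of the code. How often it calls differences as small as those of the tested hormone response genes is not given here.

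The genes and lists were chosen with earlier results of these data known. Beyond the 9 genes, the text names called list genes, the 2 uncalled pathway and Sertoli genes of smallest p and the most abundant gene per list, plus the 3 genes nearest in pattern to the member of highest CPM. Others (Sox9, Wt1, Fst, Inhbe, Rhox8, Rhox11, Rhox13, Insl3 and Hsd3b6) were chosen after their values were seen. The replicate pairs differed by more than counting noise (chi-square per degree of freedom 5.87 in MUT and 11.6 in WT), so neither pair was treated as a duplicate deposit; separate preparations of a shared sample could differ as much. A single gene that the naming rule picked is not reported here.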

Additional observations from a re-analysis of the deposited data

How the results depend on the processing

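Over 16 alternatives (pseudocount, filter, scaling, variance model, tool, replicate block and library left out), the 8 tested genes kept their direction and were not called, with the exceptions of Rhox5, called without WT 1 (0.54), which made 1 called gene there against 0, and Shbg, at -0.035 without MUT 1 (range -0.035 to 0.33 with a library left out). DESeq2 gave no adjusted p for 2 of the 8. A fit without a library assumes that the lone library left varies like the other group. Leaving out each library gave 0 to 1 called genes of the 9 and 112 to 310 called genes in all, against 115. The count in all was 7 without the variance trend, 11 with no filter on low values and 53 with quantile normalization; the cause was not tested. With the replicate number as a block it was 88, and 0 of the 8 genes were called. Deviations of same-numbered libraries correlated at -0.13, and the crossed pairing, added after the data were seen, called 235 genes and 0 of the 8. The calls of Bmpr2, Cyp17a1, Gja1 and Ncoa2 were lost under the replicate block (adjusted p = 0.0512, 0.0514, 0.0544 and 0.0612), and in 6, 6, 5 and 5 of 16 alternatives. Uncalled list genes changed sign in 3 values: Ldha at 0.041 after quantile normalization and with a library left out (-0.065 to 0.013), and Ncoa4 with a library left out (-0.036 to 0.17). With a library left out, the list medians ranged from -0.051 to 0.029 (FSH and cyclic AMP), -0.027 to 0.068 (hedgehog), 0.047 to 0.13 (androgen response and Rhox), 0.085 to 0.12 (activin, inhibin and AMH), 0.089 to 0.14 (Sertoli), 0.16 to 0.30 (Leydig), -0.10 to -0.045 (germ cell), -0.17 to -0.13 (myoid) and -0.017 to 0.13 (macrophage). Quantile normalization moved the germ cell median to -0.0047, and scaling without the 100 most abundant genes moved those of the FSH and Sertoli lists to 0.043 and 0.13. Fshr, Amh and Inhba rest on few reads, which limits their precision. The ratios within libraries need no refit, so no alternative was run for them.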
